A study of Homo sapiens with 12 samples.

Results

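The values below describe how the effect of CD44s overexpression (CD44s-OE) differed between 2 established colon cancer cell lines, SW480 and HCT116. The quantity followed is the line difference, the change between CD44s-OE and parental cells in SW480 minus the same change in HCT116, on the log2 scale. It was obtained for 18877 genes from 8 of the 12 RNA-seq libraries of the series, namely SW480 CD44s-OE, SW480 parental, HCT116 CD44s-OE and HCT116 parental, with 2 libraries in each. In the libraries labelled CD44s-OE (CD44std in the labels), a pcDNA plasmid coding for CD44s had been introduced and stable cells had been kept under Geneticin, and the column names call them pools. The treatment note on transfection and Geneticin is the same for all 12 samples, parental ones included, so which cells were left untreated rests on the group labels alone. The other groups are labelled parental, and an empty-vector group is not analysed here, so plasmid delivery, drug selection and CD44s itself cannot be told apart. The labels do not say whether replicates were separate cultures, so every p-value measures only the spread between these libraries, which may be technical.

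CD44 is a transmembrane receptor for hyaluronan that links the extracellular matrix to the cytoskeleton and acts as a co-receptor for growth factor receptors. Its standard isoform, CD44s, lacks the variable exons that epithelial cells retain through the splicing factor ESRP1, and it is the form known from mesenchymal cells. In carcinoma cells, epithelial to mesenchymal transition (EMT) lowers junction, polarity and apical sorting genes and raises intermediate filament, matrix and motility genes under transcription factors such as ZEB1. SW480 carries a truncated APC and HCT116 a stabilised β-catenin, so the same construct was placed in 2 different starting states.

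The overexpressed gene itself did not differ detectably in its total RNA. CD44 (ENSG00000026508, chromosome 11, 35160429 to 35253949 in hg19) was at 178 and 203 CPM (counts scaled to 1e+06 per library, after TMM normalization) in SW480 CD44s-OE libraries, against 185 and 159.9 CPM in SW480 parental libraries. It was at 564 and 513 CPM in HCT116 CD44s-OE libraries and at 535 and 538 CPM in HCT116 parental libraries. The CD44s-OE and parental ranges overlapped in both lines, and the HCT116 libraries were above the SW480 libraries throughout. The line difference was 0.14 ± 0.23 (log2, SE; adjusted p = 0.873, edgeR quasi-likelihood test with Benjamini-Hochberg adjustment over all genes, as for every adjusted p below). Gene counts sum all isoforms, so added CD44s RNA would raise them if reads from the construct were counted, which the sources used here do not say. The total of CD44 therefore gave no sign of the overexpression that the labels name, and CD44s-OE below means the libraries labelled so. The study measured CD44 isoforms in its CD44s-OE cells of both lines separately, by RT-qPCR and western blot, which are not part of these data.

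Depth was even, at 43102156 to 52811889 counts per library over the 12 libraries. Replicates were less alike in 2 of the 4 groups used. Among genes at 5 CPM or more, 34 of 10557 were over 2-fold apart between the 2 SW480 CD44s-OE libraries and 360 of 10476 between the 2 SW480 parental libraries, and 275 of 10700 between the 2 HCT116 CD44s-OE libraries and 40 of 10402 between the 2 HCT116 parental libraries. Colon epithelium markers summed to 8550 and 9993 CPM in SW480 CD44s-OE, against 17380 and 17430 CPM in SW480 parental cells, and to 5846 and 7096 CPM in HCT116 CD44s-OE, against 6850 and 8244 CPM in HCT116 parental cells. Of these 12 markers 5 were under 1 CPM in each group, among them GPA33, LGALS4, CEACAM5 and CDH17, and the others were higher. Leukocyte marker lists summed to no more than 5.8 CPM and endothelial lists to no more than 1.55 CPM in any of these libraries. Fibroblast markers summed to 44 to 62.7 CPM in HCT116 CD44s-OE, against 19 to 26.5 CPM in HCT116 parental cells, and to 13.7 to 17.8 CPM in SW480 CD44s-OE, against 10.8 to 14.3 CPM in SW480 parental cells. Of these 10 markers 7 or 8 were under 1 CPM in each group, among them THY1, LUM, DCN, FAP, PDGFRA and COL1A2. Neuron markers summed to 59.6 to 68.6 CPM in HCT116 CD44s-OE, against 48.6 to 54.7 CPM in HCT116 parental cells, and to 22 to 32.6 CPM in SW480 CD44s-OE, against 19.1 to 19.7 CPM in SW480 parental cells, with 5 or 6 of 8 under 1 CPM. The part of such markers in the results was not tested. In bulk RNA, fewer cells expressing a gene and less RNA per cell cannot be told apart.

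A line difference was called for 273 of the 18877 genes (adjusted p under 0.1 and an absolute log2 value over 1.5). It was positive, meaning that the SW480 effect was above the HCT116 effect, for 131 genes (0.694% of genes tested) and negative for 142 (0.752%). Within SW480, 281 genes rose (1.49%) and 91 fell (0.482%) with CD44s-OE. Within HCT116, 272 genes rose (1.44%) and 42 fell (0.222%). Only 28 genes were called in both lines, of which 22 rose in both, 4 fell in both and 2 moved in opposite directions. Over all genes tested the 2 effects had a Pearson r of 0.123, and of 0.161 over the 12618 genes with an average log2 CPM of at least 1, given as a description over genes from libraries that the lines do not share.

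A response in one line alone is a stronger statement than a call in one line and none in the other, because it needs the difference itself to pass. Of 344 genes called in SW480 and not in HCT116, 126 also had a called line difference, and these are termed SW480-only below (98 higher, 28 lower). Of 286 genes called in HCT116 and not in SW480, 69 had one and are termed HCT116-only (59 higher, 10 lower). These terms do not mean that the other line was unchanged. Among SW480-only genes, RASGRF1 (−0.99, adjusted p = 0.0497) and EHF (−1.10, adjusted p = 0.0506) passed on p in HCT116 but not on size. A further 2 genes moved in opposite directions, 3 in the same direction by unequal amounts, and 73 had a called line difference without a called effect in either line. In all 273 genes the 4 pairwise differences between CD44s-OE and parental libraries of one line lay beyond all 4 of the other line, which was also so for 28.3% of all genes tested.

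The number of genes depended on single libraries. The 273 became 55 without SW480 CD44s-OE replicate 2, 118 without SW480 CD44s-OE replicate 1, 116 without HCT116 parental replicate 2, 144 without HCT116 parental replicate 1 and 552 without SW480 parental replicate 2. It became 894 when SW480 parental replicate 2 and HCT116 CD44s-OE replicate 2 were both left out. The 126 SW480-only genes became 34 and 77 without SW480 CD44s-OE replicates 2 and 1, 67 and 71 without HCT116 parental replicates 2 and 1, and 250 without SW480 parental replicate 2. The 69 HCT116-only genes became 14 and 19 without SW480 CD44s-OE replicates 2 and 1, 27 and 41 without HCT116 parental replicates 2 and 1, 114 without SW480 parental replicate 2 and 147 without HCT116 CD44s-OE replicate 2.

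The clearest SW480-only rises were in 2 genes that SW480 parental cells already expressed. SLC9A3 (chromosome 5, 470571 to 524564 in hg19) encodes the apical sodium and proton exchanger NHE3 of absorptive epithelium. It was at 92.2 and 110.2 CPM in SW480 CD44s-OE libraries, against 8.68 and 7.52 CPM in SW480 parental libraries. In HCT116 it was at 0.715 and 0.509 CPM in CD44s-OE libraries and 0.828 and 1.17 CPM in parental libraries. Only the 2 SW480 CD44s-OE libraries stood out, and the line difference was 4.35 ± 0.36 (SE, adjusted p = 0.000407), with an effect of 3.64 in SW480 and −0.70 in HCT116. EHF, an ETS-family transcription factor of epithelial cells, was at 37.9 and 41.6 CPM in SW480 CD44s-OE libraries, against 3.58 and 4.91 CPM in SW480 parental libraries. In HCT116 CD44s-OE libraries it was at 11 and 17.9 CPM, against 29.2 and 32.6 CPM in HCT116 parental libraries. Groups did not overlap in either line and pointed opposite ways, with a line difference of 4.32 ± 0.37 (adjusted p = 0.000407), an effect of 3.22 in SW480 and one of −1.10 in HCT116 that passed on p (adjusted p = 0.0506) but not on size. Both genes kept their call under all 20 alternative settings tried.

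Other SW480-only rises began from a measurable parental level as well. The secreted cytokine gene IL16, named after its values were seen, was at 70.7 and 93.5 CPM in SW480 CD44s-OE libraries, against 6.5 and 11.5 CPM in SW480 parental libraries, and was at 0.226 CPM or less in every HCT116 library used (line difference 2.80 ± 0.62, adjusted p = 0.0579). RASGRF1, a guanine nucleotide exchange factor for Ras that was also named after its values were seen, was at 53 and 65 CPM in SW480 CD44s-OE libraries, against 15.2 and 16.8 CPM in SW480 parental libraries. HCT116 had 1.15 and 1.19 CPM in CD44s-OE libraries, against 2.39 and 2.27 CPM in parental libraries, and the line difference was 2.88 ± 0.31 (adjusted p = 0.00153). LFNG, a glycosyltransferase that modifies Notch receptors, was at 15.4 and 25.2 CPM in SW480 CD44s-OE and 4.3 and 8.53 CPM in SW480 parental libraries, while the 4 HCT116 libraries stayed between 12.9 and 16.1 CPM. LFNG rose by 1.66 in SW480 (line difference 1.93 ± 0.45, adjusted p = 0.0721), a call that 8 of 20 alternatives did not keep.

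Most SW480-only rises were of another kind, in genes that parental HCT116 cells expressed and parental SW480 cells did not. Of the 98 genes, 94 had a higher level in HCT116 than in SW480 parental cells, 71 were over 32-fold apart, and 57 were below the limit that a count of 0 allows in SW480 parental cells. In those 71 genes the SW480 CD44s-OE level was a median of 1.89% of the HCT116 parental level in replicate 1 and 2.37% in replicate 2. GTSF1, a zinc finger protein of the piRNA pathway, was at 1.49 and 2.91 CPM in SW480 CD44s-OE libraries and had 0 counts in both SW480 parental libraries. In HCT116 it was at 198 and 159 CPM in CD44s-OE libraries and at 181 and 185 CPM in parental libraries. Both SW480 CD44s-OE libraries lay far below all HCT116 libraries, and their mean was at least 16.3-fold higher than the mean limit set by the parental zeros (3 read pairs, or 6 counts, per library).

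The same arrangement was seen in RTL8A, a retrotransposon-derived gene on the X chromosome, which was at 1.13 and 2.4 CPM in SW480 CD44s-OE libraries (at least 13.1-fold higher than the parental limit) and between 115 and 144 CPM in the HCT116 libraries. MAGEA3, a cancer-testis antigen on the X chromosome, was at 0.732 and 1.1 CPM in SW480 CD44s-OE libraries (at least 6.82-fold higher), against 63.1 and 66.9 CPM in HCT116 CD44s-OE and 74.6 and 97.1 CPM in HCT116 parental libraries. HLTF, a chromatin remodeller of replication forks, was at 0.627 and 0.904 CPM in SW480 CD44s-OE libraries (at least 5.70-fold higher), with 26.9 to 38.7 CPM in the HCT116 libraries. The bounds were at least 7.52-fold for the noncoding RNA CASC19, 2.87-fold for the heparan sulphate sulphotransferase HS6ST2, 2.41-fold for carbonic anhydrase CA2 and 1.92-fold for the phosphatase PUDP. CASC19 had a larger share than these others, at 9.00% and 10.3% of the HCT116 parental level in the SW480 CD44s-OE libraries. EREG, the EGF receptor ligand epiregulin, was at 5.61 and 7.19 CPM in SW480 CD44s-OE libraries, against 1.1 and 0.337 CPM in SW480 parental libraries, and at 231 and 285 CPM in HCT116 CD44s-OE libraries, against 274 and 330.3 CPM in HCT116 parental libraries. The epithelial GTPase RAB25, the protease PRSS8, the transporter ABCC2, the cytokine IL18 and the mitophagy receptor BNIP3 were each no higher than 1.14 CPM in SW480 CD44s-OE libraries and at least 34.3 CPM in HCT116 parental libraries.

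A set chosen on parental libraries alone gives the level of such genes in each library. There were 24 genes with at least 20 CPM in both HCT116 parental libraries and no more than 2 counts in either SW480 parental library. The set is not independent of the rises above, since 19 of the 24 are SW480-only rises themselves (GTSF1, RTL8A, MAGEA3, HLTF, CA2 and RAB25 among them), 1 belongs to another class with a called line difference and 4 had none. All 24 had counts in each SW480 CD44s-OE library, and pooled they stood at 1.14% of the HCT116 parental level in replicate 1 and at 1.58% in replicate 2, against 0.022% and 0.019% in the SW480 parental libraries. Single genes ranged from 0.35% to 6.60% in replicate 1 and from 0.125% to 4.13% in replicate 2. In the other direction, 23 genes restricted to SW480 stood at 0.163% and 0.275% of the SW480 parental level in the HCT116 CD44s-OE libraries, against 0.017% and 0.060% in the HCT116 parental libraries. Each such share, pooled over its set, was multiplied by the other line's parental level and subtracted from the CD44s-OE counts. Counts below 0 were set to 0, and parental counts were left unchanged. After this, 42 of the 98 SW480-only rises and 51 of the 59 HCT116-only rises kept their class. The HCT116 share was estimated mostly from SW480-only rises, which favours the loss of their calls. It was also larger than the SW480 share, so the 2 counts cannot be compared. CASC19 and HLTF kept their call, while GTSF1, RTL8A, MAGEA3, HS6ST2, CA2 and PUDP lost it. RAB25, PRSS8, ABCC2 and BNIP3 were among those whose line difference changed sign, and none of them was then called. Because only CD44s-OE counts were lowered, such a sign is no evidence of a fall. The subtraction was chosen after seeing the data. What placed these low counts in the SW480 CD44s-OE libraries was not tested.

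Other SW480-only rises in genes that HCT116 expressed more highly had a share of the HCT116 parental level that ran from a few percent upwards. AMOTL1, a junction-associated regulator of YAP, was at 4.41 and 2.93 CPM in SW480 CD44s-OE libraries, against 0.35 and 0.119 CPM in SW480 parental libraries, with 35.6 to 51.6 CPM in the HCT116 libraries. Its SW480 CD44s-OE libraries were at 9.97% and 6.61% of the HCT116 parental level. COL6A2, a chain of collagen VI, was at 4.71 and 7.82 CPM in SW480 CD44s-OE and 1 and 0.911 CPM in SW480 parental libraries, against 309 and 277 CPM in HCT116 CD44s-OE and 173 and 149 CPM in HCT116 parental libraries. Its shares of 2.92% and 4.85% lay within the interquartile range of the 71 genes above (0.964% to 4.78% in replicate 1 and 1.35% to 6.00% in replicate 2), and its line difference of 1.85 became 1.26 after subtraction and lost the call (adjusted p = 0.164). DPP4, an apical peptidase of enterocytes, was at 1.82 and 2.34 CPM in SW480 CD44s-OE and 0.1 and 0.238 CPM in SW480 parental libraries. In HCT116, DPP4 was at 10.4 and 10.6 CPM in CD44s-OE libraries and at 5.74 and 4.64 CPM in parental libraries, an effect of 1.02 that did not pass. The SW480 CD44s-OE libraries were at 35.04% and 45.03% of the HCT116 parental level of DPP4, above all SW480 parental values and below all HCT116 values. GATA6, an endodermal transcription factor named after its values were seen, was at 2.11 and 2.52 CPM in SW480 CD44s-OE libraries, against 0.450 and 0.554 CPM in SW480 parental libraries, and between 9.23 and 12.3 CPM in HCT116 libraries.

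The 28 SW480-only falls included secreted signals, keratins and chains of one basement membrane protein. Their number depended on single libraries, at 0 without SW480 CD44s-OE replicate 2, 11 without SW480 CD44s-OE replicate 1, 14 and 11 without HCT116 parental replicates 1 and 2, and 101 without SW480 parental replicate 2 (edgeR; 55 with DESeq2 on all 8 libraries). Without SW480 CD44s-OE replicate 2 all 28 still had a negative line difference with an unadjusted p under 0.05, which the choice of these genes favours. Laminin-332, the anchor of epithelial cells to the basement membrane, has chains encoded by LAMA3 and LAMB3, both named after their values were seen. LAMB3 was at 18.4 and 20.9 CPM in SW480 CD44s-OE, against 85.8 and 54.2 CPM in SW480 parental libraries, and at 64.3 and 36.1 CPM in HCT116 CD44s-OE, against 48.4 and 46 CPM in HCT116 parental libraries (line difference −1.92 ± 0.39, adjusted p = 0.0408). LAMA3 was at 15.8 and 10.6 CPM in SW480 CD44s-OE, against 44.7 and 39.9 CPM in SW480 parental libraries, and between 3.91 and 5.54 CPM in all 4 HCT116 libraries (line difference −1.75 ± 0.36, adjusted p = 0.0441). LAMA3 and LAMB3 thus fell in SW480, where the groups were apart, while the HCT116 groups overlapped for both.

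Among other SW480-only falls, KRT13, a keratin of stratified epithelium, was at 7.22 and 3.05 CPM in SW480 CD44s-OE libraries, against 68.8 and 63 CPM in SW480 parental libraries. In HCT116 it was at 6.55 and 16.8 CPM in CD44s-OE libraries and 3.95 and 1.69 CPM in parental libraries (line difference −5.73 ± 0.85, adjusted p = 0.028). SHH, the hedgehog ligand, was at 0.69 and 0.57 CPM in SW480 CD44s-OE and 6.35 and 13.9 CPM in SW480 parental libraries, and did not exceed 0.829 CPM in any HCT116 library used (line difference −5.10 ± 0.75, adjusted p = 0.00825). The matrix glycoprotein gene TNC had a line difference of −3.79, the secreted glycoprotein gene CHI3L1 one of −3.27, and the hair keratin gene KRT81 one of −2.65. The Notch ligand DLL1 was low in both lines, with 0.816 and 0.943 CPM in SW480 CD44s-OE, 2.3 and 3.07 CPM in SW480 parental, 8.59 and 6.61 CPM in HCT116 CD44s-OE and 6.33 and 6.06 CPM in HCT116 parental libraries. SHANK2, a postsynaptic scaffold also found in epithelia, BCL11A, a zinc finger repressor, and the noncoding LINC00239 completed the 8 named by size, with values between −2.97 and −2.76. Without SW480 CD44s-OE replicate 2 the adjusted p of SHH was 0.117 and of KRT13 0.11.

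A junction gene and a lipid gene fell in SW480 with a smaller or absent change in HCT116. CLDN7, a tight junction claudin, was at 16.9 and 17.6 CPM in SW480 CD44s-OE libraries, against 119 and 72 CPM in SW480 parental libraries. HCT116 had 87.6 and 58.8 CPM in CD44s-OE libraries, against 135 and 128 CPM in parental libraries, so the groups did not overlap in either line. Its effect was −2.46 in SW480 and −0.85 in HCT116 (adjusted p = 0.0999), and the line difference of −1.62 ± 0.34 (adjusted p = 0.0509) was lost in 6 of 20 alternatives. CDS1, an enzyme of phosphatidylinositol synthesis, fell by 2.21 in SW480 (line difference −1.87 ± 0.36, adjusted p = 0.0288). CDH3, the classical cadherin P-cadherin, and WNT10A, a Wnt ligand, both named after their values were seen, had line differences of −1.77 and −2.50.

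The promoter of CLDN7 is shown because it holds the E-box CACCTG, the sequence bound by the EMT repressors of the ZEB and SNAI families, at 4 positions before one of its starts. RefSeq holds 2 promoters for the gene, and the one further upstream held 0 E-boxes and 1 ISRE core (the interferon element described below). The 200 bases upstream of the other start are given 5′ to 3′ on the gene's own minus strand (chr17:7262479-7262678 of GRCh38.p14), with matches on either strand in capitals.
CLDN7: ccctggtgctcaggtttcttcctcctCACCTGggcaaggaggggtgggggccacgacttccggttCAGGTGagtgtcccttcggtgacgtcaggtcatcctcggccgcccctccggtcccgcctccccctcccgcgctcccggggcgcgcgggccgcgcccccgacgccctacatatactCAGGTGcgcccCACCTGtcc
The matches began 174, 135, 20 and 9 bases before the start. An E-box was present in 17.5% of 34943 RefSeq promoters searched over the same 250 upstream bases, and in 4 of the 11 promoters found for 6 SW480-only falling genes. A match is a description of the sequence and no evidence of binding.

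The 59 HCT116-only rises included the Wnt antagonist DKK4, which had the largest line difference among those named (−9.97), the keratin gene KRT17, the intermediate filament gene VIM and 3 genes of a type I interferon list. ISG15, a ubiquitin-like protein induced by type I interferon (chromosome 1, 936518 to 949920 in hg19), was at 41.8 and 61.4 CPM in SW480 CD44s-OE libraries, against 82.7 and 50.3 CPM in SW480 parental libraries. Its HCT116 values were 1568 and 496 CPM in CD44s-OE libraries, against 87.2 and 109 CPM in parental libraries. SW480 groups overlapped, and in HCT116 both CD44s-OE libraries were above both parental ones, replicate 1 by far the most. The line difference was −3.76 ± 0.76 (adjusted p = 0.0916), a call that 12 of 20 alternatives did not keep. IFIT3, an interferon-induced RNA-binding antiviral protein, was at 5.77 and 4.22 CPM in SW480 CD44s-OE and 2.63 and 2.77 CPM in SW480 parental libraries, and at 57.4 and 17.9 CPM in HCT116 CD44s-OE, against 1.73 and 2.64 CPM in HCT116 parental libraries (line difference −3.22 ± 0.67, adjusted p = 0.0575). DDX58, which encodes the viral RNA sensor RIG-I, was at 3.74 and 2.91 CPM in SW480 CD44s-OE, 3.63 and 4.1 CPM in SW480 parental, 63.4 and 25.4 CPM in HCT116 CD44s-OE and 5.8 and 6.96 CPM in HCT116 parental libraries (line difference −3.02 ± 0.51, adjusted p = 0.019). Its call held in 19 of 20 alternatives, and that of IFIT3 in 14.

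Over 40 tested genes of a type I interferon list, 14 rose in HCT116 and none fell, and 2 rose in SW480 (HERC5 and SAMD9, which rose in HCT116 as well). The 14 were ISG15, IFI44, IFIT1, IFIT2, IFIT3, EPSTI1, IFI35, IFIH1, MX1, PARP9, HERC5, DDX60, SAMD9 and DDX58, against 1.44% of all genes tested. The median effect was 2.58 in HCT116 and 0.17 in SW480, against 0.02 and 0.04 over all genes. The line difference was negative in 36 of the 40 genes but called in 3 (ISG15, IFIT3 and DDX58; 12 with DESeq2), with a median of −1.74. Summed over the list, SW480 was at 2000 and 2103 CPM in CD44s-OE libraries and 1864 and 2039 CPM in parental libraries, while HCT116 was at 7889 and 2673 CPM in CD44s-OE libraries and 1694 and 1808 CPM in parental libraries. Both HCT116 CD44s-OE libraries were thus above every other library, with replicate 1 far above replicate 2. Without HCT116 CD44s-OE replicate 1 the median line difference was −0.63 with 10 genes called in HCT116, and without replicate 2 it was −2.38 with 31. The 14 calls fell to 3 and 2 without HCT116 parental replicates 1 and 2, to 7 without either SW480 CD44s-OE library, and to 9 and 8 without SW480 parental replicates 1 and 2, while DESeq2 called 26.

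Neighbouring immune lists moved less far. Of 18 interferon gamma and GBP genes, 5 rose in HCT116 (GBP2, GBP4, APOL1, APOL3 and CXCL10), against 1.44% of all genes tested, and none was called in SW480 (1 with DESeq2, and 4 at an unadjusted p under 0.05). APOL1, an interferon-inducible trypanolytic lipoprotein component, was at 3.72 and 3.22 CPM in SW480 CD44s-OE, 3.1 and 5.01 CPM in SW480 parental, 4.23 and 1.39 CPM in HCT116 CD44s-OE and 0.0377 and 0.155 CPM in HCT116 parental libraries (line difference −5.06 ± 0.87, adjusted p = 0.0196). HCT116 CD44s-OE replicate 1 was within the range of the SW480 libraries and replicate 2 below it. Of 23 NFκB subunits and targets, 4 rose in HCT116 (BIRC3, RELB, NFKBIZ and TNFAIP3), against the same 1.44%, and none was called in SW480 (0 with DESeq2, and 1 at an unadjusted p under 0.05). BIRC3, an inhibitor of apoptosis and NFκB target, was at 0.92 and 0.983 CPM in SW480 CD44s-OE, 1.18 and 0.515 CPM in SW480 parental, 10.1 and 4.31 CPM in HCT116 CD44s-OE and 0.847 and 0.739 CPM in HCT116 parental libraries (line difference −2.996 ± 0.71, adjusted p = 0.0769). Of 17 genes of MHC class I presentation, 2 rose in HCT116, again against 1.44%, and no line difference was called (2 with DESeq2, and 6 at an unadjusted p under 0.05).

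The upstream sequences of 3 interferon-responsive genes are shown because they carry the core of the interferon-stimulated response element (ISRE), TTTCNNTTT or its complement, searched on both strands. Each is the 200 bases before a RefSeq start of GRCh38.p14, 5′ to 3′ in the direction of the gene, with ISRE cores in capitals and, in DDX58 only, the NFκB core GGGANTTTC as well.
ISG15 (chr1:1013297-1013496, plus strand): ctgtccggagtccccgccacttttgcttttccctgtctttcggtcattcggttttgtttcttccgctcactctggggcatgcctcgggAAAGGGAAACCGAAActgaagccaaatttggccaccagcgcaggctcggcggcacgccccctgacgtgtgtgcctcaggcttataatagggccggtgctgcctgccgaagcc
IFIT3 (chr10:89332329-89332528, plus strand): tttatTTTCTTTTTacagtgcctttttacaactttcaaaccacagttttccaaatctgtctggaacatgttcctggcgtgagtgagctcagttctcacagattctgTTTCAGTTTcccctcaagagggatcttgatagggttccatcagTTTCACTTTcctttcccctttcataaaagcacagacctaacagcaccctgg
DDX58 (chr9:32526197-32526396, minus strand): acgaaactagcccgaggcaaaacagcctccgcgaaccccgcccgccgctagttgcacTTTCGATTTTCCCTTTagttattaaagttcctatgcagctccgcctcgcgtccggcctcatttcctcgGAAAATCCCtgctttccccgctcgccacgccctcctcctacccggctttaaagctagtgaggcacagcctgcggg
ISG15 had 2 overlapping cores that began 112 and 106 bases before the start, IFIT3 had cores at 195, 94 and 51 bases (its other RefSeq promoter, not shown, had 2), and DDX58 had 2 overlapping cores at 143 and 136 bases and an NFκB core at 75. ISRE cores were present in 9.21% and NFκB cores in 1.12% of 34943 promoters. Of 14 promoters found for 10 HCT116-only rising genes, 7 held an ISRE core (in ISG15, IFIT3, DDX58, BIRC3, CEACAM1 and DCLK1) and 0 held an E-box; part of these genes were named from the interferon list, so their share is no evidence about the others.

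VIM, the mesenchymal intermediate filament vimentin (chromosome 10, 17270240 to 17279592 in hg19), was at 968 and 902 CPM in SW480 CD44s-OE libraries, against 1074 and 717 CPM in SW480 parental libraries. In HCT116 it was at 31.6 and 65.3 CPM in CD44s-OE libraries, against 4.56 and 6.36 CPM in parental libraries. SW480 was high and overlapping in all 4 libraries, whereas HCT116 rose by 3.15 and stayed below SW480 (line difference −3.09 ± 0.46, adjusted p = 0.0115, and 0.142 without SW480 CD44s-OE replicate 2). KRT17, a keratin of basal and wounded epithelium, was at 0.565 and 0.472 CPM in SW480 CD44s-OE and 0.55 and 1.13 CPM in SW480 parental libraries, and at 13.3 and 5.11 CPM in HCT116 CD44s-OE, against 0.226 and 0.272 CPM in HCT116 parental libraries (line difference −5.90 ± 0.77, adjusted p = 0.00451). KRT17 kept its call under all 20 alternatives. RGS5, a regulator of G-protein signalling, and SAT1, the catabolic enzyme of polyamines, were named after their values were seen. Both were also HCT116-only rises, with line differences of −2.86 and −2.69. SAT1 was at 85.5 and 76.0 CPM in SW480 CD44s-OE, 105 and 79.2 CPM in SW480 parental, 818 and 309 CPM in HCT116 CD44s-OE and 109 and 91.0 CPM in HCT116 parental libraries.

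As for SW480, a part of the HCT116-only rises lay in genes that the other line expressed at far higher levels. Of the 59 genes, 52 had the higher parental level in SW480 and 24 were over 32-fold apart. In those 24 the HCT116 CD44s-OE level was a median of 5.05% of the SW480 parental level in replicate 1 and 6.64% in replicate 2. These genes were chosen for rising in the same libraries, so their shares are a description. DKK4, a secreted Wnt antagonist and Wnt target, was at 10.3 and 14.5 CPM in SW480 CD44s-OE and 22.3 and 16.1 CPM in SW480 parental libraries, and at 0.953 and 2.3 CPM in HCT116 CD44s-OE libraries, with 0 counts in both HCT116 parental libraries (at least 14.2-fold higher than their limit). DCLK1, a microtubule-associated kinase, was at 31.4 and 20.3 CPM in SW480 CD44s-OE, 74.3 and 45.3 CPM in SW480 parental, 2.5 and 3.79 CPM in HCT116 CD44s-OE and 0.0377 and 0.408 CPM in HCT116 parental libraries (line difference −5.03 ± 0.80, adjusted p = 0.0248). TNFRSF19, a Wnt-responsive TNF receptor family member, was at 3.67 and 5.16 CPM in HCT116 CD44s-OE, against 0.678 and 1.17 CPM in HCT116 parental libraries, and between 17.5 and 24.7 CPM in SW480. CEACAM1, a cell adhesion molecule, was at 10.2 and 5.78 CPM in HCT116 CD44s-OE, against 1.02 and 0.933 CPM in HCT116 parental libraries, and between 3.29 and 6.53 CPM in SW480.

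Several of these genes also had lower values in SW480 CD44s-OE than in SW480 parental cells. NRP1, a co-receptor for VEGF and semaphorins that was named after its values were seen, was at 46.5 and 27.4 CPM in SW480 CD44s-OE, against 140 and 64.8 CPM in SW480 parental libraries, an effect of −1.47 that did not pass (adjusted p = 0.108). HCT116 had 10.6 and 10.1 CPM in CD44s-OE libraries, against 1.09 and 2.08 CPM in parental libraries (line difference −4.17 ± 0.59, adjusted p = 0.0138). TH, tyrosine hydroxylase, was at 21.8 and 22.4 CPM in SW480 CD44s-OE, 80.5 and 33.8 CPM in SW480 parental, 0.199 and 0.433 CPM in HCT116 CD44s-OE and 0.0188 and 0.0389 CPM in HCT116 parental libraries. EPS8L3, an actin regulator of the EPS8 family, was at 7.11 and 2.88 CPM in HCT116 CD44s-OE, against 0.339 and 0.369 CPM in HCT116 parental libraries, and had a line difference of −4.67 ± 0.63 (adjusted p = 0.00825). The membrane protein genes FAM174B and NKAIN3 were at or below 0.32 CPM in all HCT116 libraries. NKAIN3 had 0 counts in both HCT116 parental libraries, and its CD44s-OE mean was at least 1.18-fold higher than their limit. When the SW480 share was subtracted, NKAIN3 and TH lost their call (adjusted p = 0.116 and 0.136, edgeR), while FAM174B kept its own.

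The 10 HCT116-only falls included genes of epithelial sorting and differentiation. They numbered 4 without either SW480 CD44s-OE library, 3 without HCT116 parental replicate 2, 20 without HCT116 CD44s-OE replicate 1 and 16 without SW480 parental replicate 2. AP1M2, the epithelial subunit of the AP-1 adaptor that sorts cargo to the basolateral membrane, was at 5.73 and 8.9 CPM in SW480 CD44s-OE libraries, against 5.15 and 5.29 CPM in SW480 parental libraries. Its HCT116 values were 34 and 20.6 CPM in CD44s-OE libraries, against 127 and 126 CPM in parental libraries. The HCT116 fall of 2.21 left it above all SW480 libraries (line difference 2.702 ± 0.37, adjusted p = 0.00596), and the call held under all 20 alternatives. EPN3, an epithelial endocytic adaptor, was at 8.61 and 5.61 CPM in HCT116 CD44s-OE, against 49 and 57.2 CPM in HCT116 parental libraries, and no higher than 0.167 CPM in SW480 (line difference 4.24 ± 0.86, adjusted p = 0.0408). S100A14, an epithelial calcium-binding protein, was at 103 and 46.5 CPM in HCT116 CD44s-OE, against 232 and 206 CPM in HCT116 parental libraries, with 2.17 and 3.2 CPM in SW480 CD44s-OE and 1.28 and 0.515 CPM in SW480 parental libraries. In S100A14 and EPN3 the line difference was −6.89 and −1.61 when the HCT116 share was subtracted, and neither was called (adjusted p = 0.244 and 0.753). Only CD44s-OE counts were lowered by that step, so the turned sign is no evidence of a fall in SW480.

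Further falls in HCT116 concerned FOXA2, which was higher in SW480, and KRT7, which was higher in HCT116 parental cells. FOXA2, a pioneer transcription factor of endoderm, was at 14.5 and 16.8 CPM in SW480 CD44s-OE, 9.83 and 9.56 CPM in SW480 parental, 0.199 and 0.113 CPM in HCT116 CD44s-OE and 0.489 and 0.739 CPM in HCT116 parental libraries (line difference 2.66 ± 0.50, adjusted p = 0.028). KRT7, a simple epithelial keratin, was at 6.13 and 11 CPM in HCT116 CD44s-OE, against 25.9 and 46.9 CPM in HCT116 parental libraries, and between 2.61 and 4.32 CPM in SW480. The transporter gene SLC16A14 and the phospholipid flippase gene ATP8B1 also fell, by 1.70 and 1.65.

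AP1M2 is shown for the same reason as CLDN7 above, as a falling epithelial gene whose promoter holds the E-box CACCTG. The 200 bases before its RefSeq start are 5′ to 3′ on the minus strand (chr19:10587313-10587512 of GRCh38.p14), with E-boxes in capitals.
AP1M2: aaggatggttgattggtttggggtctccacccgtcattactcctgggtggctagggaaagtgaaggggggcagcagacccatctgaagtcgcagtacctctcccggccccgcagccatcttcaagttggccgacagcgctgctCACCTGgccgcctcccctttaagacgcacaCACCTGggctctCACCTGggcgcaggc
The matches began 57, 27 and 15 bases before the start. Of 3 promoters found for HCT116-only falling genes, 2 held an E-box (AP1M2 and S100A14), against 17.5% of all promoters. Rising genes had them too, in 4 of the 18 promoters found for 16 SW480-only rising genes.

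Only 2 genes were called in both lines with opposite signs. FAM189A1, a transmembrane protein of little-known function, was at 8.83 and 4.66 CPM in SW480 CD44s-OE libraries, against 19 and 20.9 CPM in SW480 parental libraries, and at 1.75 and 1.24 CPM in HCT116 CD44s-OE, against 0.452 and 0.311 CPM in HCT116 parental libraries. It fell by 1.57 in SW480 and rose by 1.96 in HCT116 (line difference −3.53 ± 0.52, adjusted p = 0.00825), and the groups did not overlap in either line. KRTCAP3, a keratinocyte-associated membrane protein, was at 0.46 and 0.491 CPM in SW480 CD44s-OE, against 0.15 and 0.178 CPM in SW480 parental libraries, and at 12.5 and 15.1 CPM in HCT116 CD44s-OE, against 39.6 and 42.4 CPM in HCT116 parental libraries. It rose by 1.51 in SW480 and fell by 1.57 in HCT116 (line difference 3.08 ± 0.41, adjusted p = 0.00529), but its SW480 rise equalled 0.76% of the HCT116 parental level. When the HCT116 share was subtracted from the CD44s-OE counts, the line difference was −2.16 and not called (adjusted p = 0.351). With no minimum size, 10 genes passed in both lines with opposite signs. Among them TH, FAM189A1, ITGA2 and H2BC5 were lower in SW480 and higher in HCT116, and EHF, RASGRF1, SLC16A14, KRTCAP3 and ASTN2 were higher in SW480 and lower in HCT116.

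Of the 73 genes with a line difference and no called effect in either line, 21 had a positive and 52 a negative value, and all 73 had effects of opposite sign, which the choice of such genes nearly fixes. Receptors and ligands of the basement membrane stood among the negative ones. ITGA2, the collagen-binding integrin α2 chain, was at 18.5 and 13.3 CPM in SW480 CD44s-OE, against 51.3 and 22.3 CPM in SW480 parental libraries, and at 84.7 and 73.2 CPM in HCT116 CD44s-OE, against 29.6 and 31.7 CPM in HCT116 parental libraries. The 2 lines ended far apart from parental levels that overlapped in part (line difference −2.57 ± 0.46, adjusted p = 0.0253). ITGB4, the laminin-binding integrin β4 chain of hemidesmosomes, was at 259.9 and 313 CPM in SW480 CD44s-OE, 636 and 337 CPM in SW480 parental, 1076 and 993 CPM in HCT116 CD44s-OE and 473 and 471 CPM in HCT116 parental libraries (line difference −1.896 ± 0.36, adjusted p = 0.028). The other integrin genes of a list of 19 had no line difference called with edgeR, while DESeq2 called 3 negative ones in that list. ITGA10 and ITGAX rose in HCT116, against 1.44% of all genes tested.

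Further matrix genes of this class had line differences between −1.70 and −1.53, namely the laminin chain LAMA5 (−1.55), the heparan sulphate proteoglycan AGRN, the collagen crosslinker LOXL2 and the membrane protease MMP14, all 4 named after their values were seen. LAMA5 was at 278 and 307 CPM in SW480 CD44s-OE, 308 and 321 CPM in SW480 parental, 420 and 550.1 CPM in HCT116 CD44s-OE and 188 and 167 CPM in HCT116 parental libraries. KRT15, a basal keratin, had a line difference of −2.14. In the positive direction RBM47, an RNA-binding splicing regulator of epithelial cells, was at 4.56 and 3.36 CPM in SW480 CD44s-OE, 1.68 and 1.96 CPM in SW480 parental, 9.07 and 5.8 CPM in HCT116 CD44s-OE and 13.9 and 13.6 CPM in HCT116 parental libraries (line difference 2.01 ± 0.42, adjusted p = 0.0484). HES4, a Notch-responsive repressor (−1.53), and DSC3, a desmosomal cadherin (3.08), belonged to this class as well.

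In 3 genes both lines moved in the same direction by unequal amounts. MAL2, a protein of apical transcytosis, was at 4.94 and 2.38 CPM in SW480 CD44s-OE, against 44.3 and 42.5 CPM in SW480 parental libraries, and at 35.3 and 26.8 CPM in HCT116 CD44s-OE, against 97.9 and 90.5 CPM in HCT116 parental libraries. It fell by 3.57 in SW480 and by 1.60 in HCT116 (line difference −1.97 ± 0.39, adjusted p = 0.0355). VCAN, the hyaluronan-binding proteoglycan versican, was at 2.09 and 1.38 CPM in SW480 CD44s-OE libraries with 0 counts in both SW480 parental libraries (at least 12.9-fold higher than their limit), and at 117 and 175 CPM in HCT116 CD44s-OE, against 26.8 and 40.4 CPM in HCT116 parental libraries. With edgeR, VCAN was the only called line difference among 20 genes of hyaluronan and CD44 partners, against 0.694% positive and 0.752% negative over all genes. DESeq2 called 1 positive and 3 negative ones in that list. The last of the 3 genes was PLAAT4, a phospholipid-modifying enzyme named after its values were seen. It was at 0.732 and 1.20 CPM in SW480 CD44s-OE, 0.1 and 0.158 CPM in SW480 parental, 5.16 and 3.18 CPM in HCT116 CD44s-OE and 0.0188 and 0 CPM in HCT116 parental libraries.

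Of 11 genes that the study names for these libraries, VIM and MAL2 had a called line difference, as described above, and the others had none. ZEB1 was at 26.4 and 14.4 CPM in SW480 CD44s-OE, 9.05 and 7.68 CPM in SW480 parental, 16.1 and 9.95 CPM in HCT116 CD44s-OE and 0.922 and 2.12 CPM in HCT116 parental libraries. CD44s-OE libraries were above parental libraries in both lines, the rise passed in HCT116 (3.10, adjusted p = 0.00621) and not in SW480 (1.28, adjusted p = 0.138), and the difference did not pass (−1.81 ± 0.56, adjusted p = 0.188). It stayed uncalled in 16 of 20 alternatives and was called with DESeq2 (adjusted p = 0.0285), with no low-count filter (0.000984), with all 12 libraries (0.0882) and without both HCT116 CD44s-OE replicate 2 and SW480 parental replicate 2 (0.0522). CDH1, the epithelial E-cadherin, was at 1.32 and 0.884 CPM in SW480 CD44s-OE, 6.38 and 16.8 CPM in SW480 parental, 21.9 and 14.5 CPM in HCT116 CD44s-OE and 64.8 and 46.5 CPM in HCT116 parental libraries. It fell in SW480 by 3.40 and in HCT116 by 1.61 (line difference −1.79 ± 0.60, adjusted p = 0.24). That too stayed uncalled in 16 of 20 alternatives, and was called with DESeq2 (adjusted p = 0.0286), with no low-count filter (0.000137), with crossed replicate numbers (0.0898) and without SW480 parental replicate 1 (−2.31, adjusted p = 0.00674), whereas it was −0.92 without SW480 parental replicate 2. The splicing regulator ESRP1 fell by 2.45 in SW480, and its value of −1.36 in HCT116 was under the minimum size (line difference −1.09, adjusted p = 0.178). EPCAM, an epithelial adhesion molecule, was at 70.5 and 69.2 CPM in SW480 CD44s-OE, 239 and 239 CPM in SW480 parental, 79.2 and 120 CPM in HCT116 CD44s-OE and 209.8 and 232 CPM in HCT116 parental libraries (line difference −0.63, adjusted p = 0.355). SPARC, a secreted matrix glycoprotein, rose by 2.48 in SW480 and by 4.07 in HCT116 (line difference −1.58, adjusted p = 0.5). The cytokines IL32 and CSF2 had line differences of −1.25 and −2.17, neither of which passed.

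As groups, epithelial and mesenchymal genes differed in which members moved. Of 40 mesenchymal and matrix genes, 4 rose in SW480 (COL4A1, CDH11, COL6A2 and SPARC) and 4 fell (LAMA3, LAMB3 and TNC among them), against 1.49% and 0.482% of all genes, whereas 3 rose in HCT116 (VIM, COL3A1 and SPARC), against 1.44%, and 0 fell (5 and 1 with DESeq2; 18 of the HCT116 effects, in either direction, had an unadjusted p under 0.05). The 4 SW480 falls became 1 without SW480 CD44s-OE replicate 2, and the 3 HCT116 rises became 7 without either SW480 parental library and 5 without HCT116 CD44s-OE replicate 2 or HCT116 parental replicate 1. The median effect was 0.01 in SW480 and 0.77 in HCT116. With edgeR 7 negative line differences and 1 positive one were called, against 0.752% and 0.694% of all genes (9 and 3 with DESeq2). The median line difference of −0.98 was −0.50 without SW480 parental replicate 2. Of 41 epithelial adhesion, polarity and sorting genes, 3 rose and 9 fell in SW480, against 1.49% and 0.482% of all genes. In HCT116 0 rose and 6 fell (1 and 6 with DESeq2), against 1.44% and 0.222%. The medians were close, at −0.65 in SW480 and −0.56 in HCT116. In this list 5 positive (RAB25, PRSS8, EPN3, AP1M2 and RBM47) and 3 negative (CLDN7, CDS1 and MAL2) line differences were called, against 0.694% and 0.752% of all genes. Of the positive ones, RAB25, PRSS8 and EPN3 turned to −2.62, −4.08 and −1.61 when the HCT116 share was subtracted from the CD44s-OE counts alone. None of the 3 was then called. Of 7 EMT transcription factors, ZEB1 and SNAI2 rose in HCT116, against 1.44% of all genes. None was called in SW480 (0 with DESeq2, and 3 at an unadjusted p under 0.05), and no line difference was called (2 negative ones with DESeq2, and 2 at an unadjusted p under 0.05). Of 13 epithelial transcription factors, 2 rose in SW480 (EHF among them), OVOL2 fell there, and GRHL2 fell in HCT116, against 1.49%, 0.482% and 0.222% of all genes. Of 27 enterocyte and differentiation genes, 7 rose in SW480 and 3 in HCT116 with edgeR, against 1.49% and 1.44% of all genes. With DESeq2, 4 rose in SW480 and 4 in HCT116, so the unequal counts depended on the tool. Line differences were called for 3 with a positive value (SLC9A3, DPP4 and CA2) and 1 with a negative value (CEACAM1), against 0.694% and 0.752%. CA2 was at 0.947% and 1.14% of the HCT116 parental level in the SW480 CD44s-OE libraries. With the HCT116 share subtracted from the CD44s-OE counts, its line difference was 0.72 and not called, while SLC9A3, DPP4 and CEACAM1 kept theirs.

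Proliferation lists had no called gene with edgeR or with DESeq2, in either line or in the line difference, but their values leaned one way. Of 39 DNA replication genes, 38 had a positive line difference and 1 a negative one, against 48.9% negative over all genes. The median was 0.59, from medians of 0.10 in SW480 and −0.55 in HCT116. At an unadjusted p under 0.05 (edgeR), 21 of the 39 had a line difference, 0 an SW480 effect and 29 an HCT116 effect. The share of all genes at that unadjusted p was not obtained. Such counts, for this and every other list, are therefore a description and cannot be set against a general rate. Summed, they were at 5823 and 5710 CPM in SW480 CD44s-OE, 4830 and 5700 CPM in SW480 parental, 3867 and 4513 CPM in HCT116 CD44s-OE and 5910 and 6093 CPM in HCT116 parental libraries. The HCT116 CD44s-OE libraries were the lowest of all, and the SW480 CD44s-OE libraries were next to the higher of the parental ones. Of 36 mitosis genes, 34 had a positive line difference (median 0.50), and of 30 MYC target and ribosome biogenesis genes 27 did (median 0.42), with 13 and 5 line differences at an unadjusted p under 0.05. The 13 mitochondrially encoded genes, which code for respiratory chain subunits, all had a negative line difference (median −1.08), none was called by either tool, and 5 had an unadjusted p under 0.05. Their sum was at 52050 and 40010 CPM in SW480 CD44s-OE, 33660 and 56750 CPM in SW480 parental, 103900 and 82730 CPM in HCT116 CD44s-OE and 58940 and 34930 CPM in HCT116 parental libraries. SW480 replicates were as far apart as the groups, and in HCT116 the CD44s-OE libraries, which had the high interferon and low replication sums, were above both parental ones.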

How the data were processed

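Polyadenylated RNA of 12 samples was sequenced in pairs by BGI (DNBSEQ), and the authors filtered the reads. According to the submitters' processing notes and the table headers, the authors aligned them to hg19 with STAR 2.7.9a and counted them over GENCODE 35 genes lifted to hg19 with featureCounts of Subread 2.0.3. Raw counts as made by the authors were deposited for 62426 genes, 40400 of them with any count, and both reads of a pair appear to add to them (counts of 4 and 6 outnumber 3 and 5). The deposited log2-like values are the authors' variance-stabilized counts from DESeq2 1.30.1, and they served only for gene symbols and a check of rank order. The authors' sources gave 28270 symbols and the reference annotation 16412, and 17744 genes had none.

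Samples were grouped by line and CD44s-OE or parental as labelled, and the 4 CD44v6-OE libraries were left out of the tests. A mean per group was fitted over 8 libraries with edgeR 4.0.16 (filterByExpr, TMM, robust quasi-likelihood test; R 4.3.3, limma 3.58.1), and p was adjusted by Benjamini-Hochberg over all genes tested. A gene was called if its adjusted p was below 0.1 and its log2 value was over 1.5 in size. The fit was tested on simulated data first. A count of 0 allows 3 read pairs (6 counts, 0.114 to 0.139 CPM per library), for counting error only.

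Genes were named by a rule. Those eligible had a symbol, a mean log2 CPM no lower than 1 and effects that did not overlap between lines, and the rule took the 8 largest of each class, up to 3 called members of each list in each direction, and those the study names. A few genes that the rule took are not reported here. Others are marked as named after their values were seen, apart from those that spell out a count. Genes and lists were chosen with earlier results of these data known. Promoters came from RefSeq (GRCh38.p14), where 48 of 71 named genes matched 70 promoters. Alternatives were RLE size factors, other filters, no robust estimation, DESeq2 1.42.0, all 12 libraries, a replicate block, each library left out, halved counts and other thresholds. After seeing the data, 3 were added: genes under 32-fold apart between parental lines, subtraction of the other line's share, and crossed replicate numbers.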

Additional observations from a re-analysis of the deposited data

Results flagged for a closer look

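The effect of CD44s-OE differed between SW480 and HCT116 by a test of the difference itself for 273 genes. Of these, 126 were called in SW480 and not in HCT116, and 69 in HCT116 and not in SW480. Leaving out 1 library gave 34 to 250 and 14 to 147 such genes, and after subtraction of the other line's share 42 of the 98 SW480-only rises and 51 of the 59 HCT116-only rises kept their class. The HCT116 share was estimated mostly from SW480-only rises and was larger than the SW480 share, so the 42 and the 51 cannot be compared. The 2 genes called in opposite directions are among the 273. KRTCAP3 had a line difference of 3.08, from a rise in SW480 and a fall in HCT116. After subtraction the KRTCAP3 line difference was −2.16 and not called (adjusted p = 0.351, edgeR). Subtraction lowered CD44s-OE counts only, so that sign is no evidence of a fall in SW480. FAM189A1 had one of −3.53, from a fall in SW480 and a rise in HCT116.

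A signal outside the comparisons appeared in the CD44v6-OE libraries, which were not fitted. The 24 genes restricted to HCT116 on parental libraries stood at a pooled 2.36% of the HCT116 parental level in SW480 CD44v6-OE replicate 1 and at 0.0727% in SW480 CD44v6-OE replicate 2, against 0.0221% and 0.0194% in the SW480 parental libraries. All 24 had counts in replicate 1, and 14 of 24 had in replicate 2. The same genes were at 1.14% and 1.58% in the 2 SW480 CD44s-OE libraries used in the report, so 3 of the 4 SW480 libraries with a CD44 construct held them at about 1% or more. What placed these counts there was not tested. Groups of 2 libraries allow no test for a library that stands apart.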

How the results depend on the processing

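All values here are numbers of genes unless named otherwise. Without a filter on low counts there were 595 line differences, 572 SW480 effects, 523 HCT116 effects, 237 SW480-only, 163 HCT116-only and 7 opposite genes. DESeq2 gave 516 line differences, 195 SW480-only, 145 HCT116-only and 5 opposite genes. The fit on all 12 libraries gave 518 HCT116 effects, 119 HCT116-only and 4 opposite genes, and RLE size factors gave 1 opposite gene. At an adjusted p under 0.05 there were 168 line differences, 173 HCT116 effects, 43 HCT116-only genes and 1 opposite gene. With no minimum log2 change there were 657 SW480 effects, 851 HCT116 effects, 144 HCT116-only and 10 opposite genes. Without HCT116 CD44s-OE replicate 2 and SW480 parental replicate 2 together there were 894 line differences, 749 SW480 effects, 634 HCT116 effects, 303 SW480-only, 251 HCT116-only and 26 opposite genes, and the line difference of CD44 was −0.024. Of the alternatives added later, genes under 32-fold apart between parental lines gave 128 line differences, 183 SW480 effects, 41 SW480-only, 34 HCT116-only and 0 opposite genes (fewer genes were tested), and subtracting the other line's share gave 80 SW480-only genes and 1 opposite gene.

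Leaving out 1 library at a time gave 55 to 552 line differences, 109 to 589 SW480 effects, 60 to 479 HCT116 effects, 34 to 250 SW480-only, 14 to 147 HCT116-only and 0 to 13 opposite genes, and a CD44 line difference of 0.04 to 0.26. The cause was not tested. The positive share of line differences was 38.0% with DESeq2, 34.9% with all 12 libraries, 36.4% after subtraction and 28.9% under 32-fold apart. Of 1226 values recomputed for 63 called named genes, 1011 stayed on their side of the threshold, 208 lost the call and 7 changed sign. The 7 were under subtraction: EPN3 −1.61, S100A14 −6.89, RAB25 −2.62, ABCC2 −3.77, PRSS8 −4.08, BNIP3 −5.18 and KRTCAP3 −2.16. None of the 7 was then called, and subtraction lowered CD44s-OE counts only. Among genes not called, IL32 changed sign without SW480 parental replicate 1 (0.77, range −2.08 to 0.77).

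Replicate numbers do not pair the samples: deviations of same-numbered libraries correlated at 0.086 in HCT116 and −0.157 in SW480 over 12618 genes, and between lines at 0.306 for HCT116 CD44s-OE with SW480 parental and at −0.075 to 0.029 for the other 3 pairs of groups. The replicate block gave 298 line differences, 368 SW480 effects, 283 HCT116 effects, 134 SW480-only, 71 HCT116-only and 2 opposite genes, and the crossed SW480 pairing gave 221 line differences. Effects in genes near 0.13 CPM, the limit of a count of 0, were limited by depth.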

Other observations

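Called line differences were spread over the chromosomes, at 0.489% to 2.20% of the genes tested on each autosome. On chromosome X, 20 of 614 genes tested (3.26%) were called, of which 17 were positive. Named genes there are MAGEA3, RTL8A, HS6ST2 and PUDP, each with 0 counts in both SW480 parental libraries.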
